A study of Mus musculus with 14 samples.

Results

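In immortalised mouse embryo fibroblasts, 25431 peaks of trimethylated lysine 4 of histone H3 (H3K4me3) were found. Of these, 1243 lay on putative enhancers and far from promoters annotated by GENCODE. They were chosen in 2 steps. The centre of the peak had to lie over 3 kb from every GENCODE transcription start site (TSS), which left 4869 distal peaks among the 25357 on chromosomes 1 to 19, X and Y. The peak then had to share at least 1 base with a putative enhancer, which 1243 of the 4869 did (25.5%, 95% CI 24.3 to 26.8). A TSS of a second annotation, RefSeq, still lay within 3 kb of the centre of 203 of the 1243 (16.3%). These 1243 are called enhancer peaks here. The enhancers they touched numbered 1170 of 32965 and are called marked enhancers. They are described against the 30486 enhancers without any H3K4me3 peak, called peakless, of which 25983 also had their centre over 3 kb from a TSS. The other 3626 distal peaks overlapped no enhancer.

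The cells were a clone of immortalised fibroblasts (iMEF) whose Ash2l genes were floxed and could be recombined by Cre-ER. In every group exon 4 of the endogenous Ash2l had been deleted, and the cells lived on a fusion of FKBP with human ASH2L, which the compound dTAG sends to degradation. H3K4me3 was measured by ChIP-seq, with 2 libraries each from untreated cells and from cells after 30 min, 2 h, 4 h, 8 h and 16 h of dTAG, besides input libraries of untreated cells and of cells treated for 16 h. The peak list unites all libraries and the enhancer list describes control cells. Both hold positions only, so no value below has a replicate error, none separates treated from untreated cells, and the height of a peak and the depth behind it are unknown. Intervals are Wilson 95% intervals for shares and order-statistic intervals for medians, and they cover counting error only.

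H3K4me3 is the mark of active promoters, whereas enhancers typically carry H3K4me1 together with H3K27ac in accessible chromatin. All of these methyl marks on H3K4 are written by COMPASS/KMT2 complexes, of which ASH2L is a core subunit. KMT2A, KMT2B and the subunit CXXC1 carry CXXC domains that bind CpG dinucleotides without DNA methylation, and such CpGs are concentrated in CpG islands. Enhancers of fibroblasts often hold sites for AP-1, the dimers of FOS and JUN proteins.

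The sequences at the extremes of the group show how varied the marked enhancers were. Windows of 300 bases were centred on each marked enhancer and searched for the AP-1 motif TGANTCA, which reads the same on both strands. Of the 1170 windows, 1005 held no match, 153 held 1, 11 held 2 and 1 held 3. The first set below holds the window with 3 matches and 3 of those with 2, with the matches in capitals. They were read from the reference GRCm38.p6, on the plus strand, from windows outside exons, with ties settled by the overlap with the peak. The window near Hook2, a microtubule adaptor, spans chr8:84985490-84985789 in an intergenic enhancer of 1367 bases that touched a CpG island. The window near Nacc2, a BTB-domain repressor, spans chr2:26133071-26133370 and was also intergenic. The window in an intron of Maml3, a Notch coactivator, spans chr3:52069912-52070211. That near Eno4, an enolase relative, spans chr19:58978719-58979018 and was intronic. Its matches start 64 bases apart.
Hook2: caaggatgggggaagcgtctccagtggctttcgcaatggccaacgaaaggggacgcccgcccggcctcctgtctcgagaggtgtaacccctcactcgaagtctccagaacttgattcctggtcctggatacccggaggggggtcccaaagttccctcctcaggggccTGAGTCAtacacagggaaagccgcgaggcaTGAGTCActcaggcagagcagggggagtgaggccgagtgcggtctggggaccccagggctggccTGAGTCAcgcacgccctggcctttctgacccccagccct
Nacc2: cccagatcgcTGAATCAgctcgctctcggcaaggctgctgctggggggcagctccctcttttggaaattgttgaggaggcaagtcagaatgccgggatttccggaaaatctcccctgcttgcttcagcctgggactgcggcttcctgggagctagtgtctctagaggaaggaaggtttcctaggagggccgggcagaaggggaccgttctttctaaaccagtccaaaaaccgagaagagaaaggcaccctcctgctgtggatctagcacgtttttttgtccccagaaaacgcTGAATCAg
Maml3: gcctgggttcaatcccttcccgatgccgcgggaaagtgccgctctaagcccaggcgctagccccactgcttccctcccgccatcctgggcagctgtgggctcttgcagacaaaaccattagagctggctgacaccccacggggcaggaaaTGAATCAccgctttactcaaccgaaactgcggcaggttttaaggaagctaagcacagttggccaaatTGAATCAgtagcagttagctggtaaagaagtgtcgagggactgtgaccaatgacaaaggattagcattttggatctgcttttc
Eno4: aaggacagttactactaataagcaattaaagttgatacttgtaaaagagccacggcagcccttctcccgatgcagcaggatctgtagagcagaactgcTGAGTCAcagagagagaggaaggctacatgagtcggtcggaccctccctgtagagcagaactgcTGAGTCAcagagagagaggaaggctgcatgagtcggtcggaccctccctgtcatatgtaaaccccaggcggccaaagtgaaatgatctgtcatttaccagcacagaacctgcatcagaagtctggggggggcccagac

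The second set holds the windows with the highest CpG content, with each CG dinucleotide in capitals. The ratio of observed to expected CpGs compares the CpG count of a window with that expected from its C and G counts. The window 3.72 kb upstream of Gclc, which encodes the catalytic subunit of the enzyme for the first step of glutathione synthesis, spans chr9:77750669-77750968. It held 53 CpGs, a ratio of 1.18, and 1 AP-1 match. The window 24.2 kb upstream of Mga, a MAX-binding repressor, spans chr2:119872872-119873171, with 39 CpGs, a ratio of 1.15 and 0 AP-1 matches. A RefSeq TSS lay 509 bases from the centre of the Mga enhancer, although no GENCODE TSS lay within 3 kb of its peak's centre. Both enhancers overlapped a CpG island.
Gclc: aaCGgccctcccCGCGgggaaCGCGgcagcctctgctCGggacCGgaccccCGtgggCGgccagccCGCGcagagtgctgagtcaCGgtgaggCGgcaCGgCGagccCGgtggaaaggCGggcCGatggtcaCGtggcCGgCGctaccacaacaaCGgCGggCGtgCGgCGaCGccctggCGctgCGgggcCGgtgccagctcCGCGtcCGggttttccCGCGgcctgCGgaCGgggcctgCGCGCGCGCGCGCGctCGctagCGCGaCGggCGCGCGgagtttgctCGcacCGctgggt
Mga: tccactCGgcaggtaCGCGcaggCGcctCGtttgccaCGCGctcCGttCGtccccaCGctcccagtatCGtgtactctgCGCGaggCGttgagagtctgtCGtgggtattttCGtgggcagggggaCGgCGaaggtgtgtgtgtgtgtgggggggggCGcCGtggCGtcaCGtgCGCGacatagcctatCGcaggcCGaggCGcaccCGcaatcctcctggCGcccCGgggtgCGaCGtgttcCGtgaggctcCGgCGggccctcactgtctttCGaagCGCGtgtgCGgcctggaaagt

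Enhancer peaks were wider than other distal peaks and narrower than promoter peaks, and they sat on wide enhancers. The median enhancer peak spanned 388 bases (95% CI 369 to 404, quartiles 260 and 625). Distal peaks without an enhancer had a median of 238 bases (95% CI 235 to 241), with 238 inside genes and 239 between genes. Peaks with the centre within 1 kb of a TSS had a median of 951 bases (95% CI 938 to 965). The shortest width in the list, 200 bases, was reached by 68 of the 1243 enhancer peaks and by 862 of the 3626 other distal peaks. Conversely, 438 enhancer peaks and 415 other distal peaks spanned at least 500 bases. A wide region meets another more easily than a narrow one, so these widths are in part tied to the way the peaks were chosen.

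**Figure D1:**
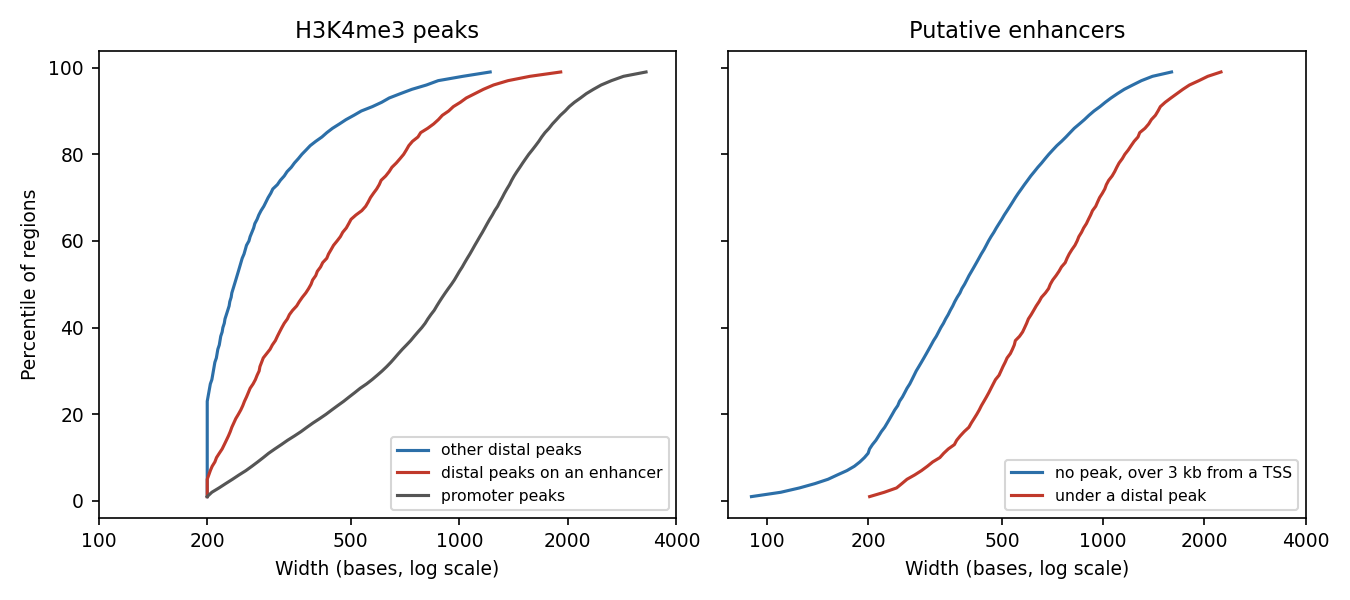
Percentiles of width (bases, log scale) for H3K4me3 peaks on the left and putative enhancers on the right, from percentile 1 to 99. The curve of the 1243 distal peaks on an enhancer, with a median of 388 bases, lies between those of the other distal peaks (238) and the promoter peaks (951), and marked enhancers (696) lie to the right of peakless ones (387).

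The same held for the enhancers. Marked enhancers had a median width of 696 bases (95% CI 656 to 737) and peakless enhancers one of 389 bases (95% CI 386 to 393), or 387 bases for those over 3 kb from a TSS. Peak and enhancer mostly coincided. In 706 of 1257 overlapping pairs the peak lay wholly inside the enhancer, in 224 the enhancer lay wholly inside the peak, and in 327 they overlapped in part. Their centres were a median of 100 bases apart (quartiles 38 and 217), and the median overlap was 341 bases. Only 3 pairs shared fewer than 50 bases. The peak lay about equally on either side of the enhancer's centre, with 625 peak centres on the side of that TSS and 612 on the other side of the enhancer's centre (50.5%, 95% CI 47.7 to 53.3).

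Most enhancer peaks paired with a single enhancer. This was so for 1229 of them, and 14 touched 2. In the other direction 1086 marked enhancers carried 1 peak, 81 carried 2 and 3 carried 3. Of these 84 enhancers with several peaks, 70 had peak centres on both sides of their own centre, with a median gap of 129 bases between neighbouring peaks. Their median width was 1265 bases. The enhancers with 3 peaks were all intronic and lay in Bcl2, whose protein blocks apoptosis, in Cald1, which encodes the actin-binding protein caldesmon, and in St5. At Bcl2 the enhancer spans chr1:106628866-106630692, and its peaks measured 497, 200 and 240 bases. The Cald1 enhancer spans chr6:34609576-34611066 with peaks of 411, 202 and 310 bases, and the St5 enhancer spans chr7:109635964-109638088 with peaks of 626, 396 and 301 bases.

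Marked enhancers were rich in CpGs. The median ratio of observed to expected CpGs in the 300-base windows was 0.40 (95% CI 0.38 to 0.42) in marked and 0.18 (95% CI 0.18 to 0.18) in peakless enhancers. The windows held a median of 8 and 3 CpGs, respectively, and their median GC content was 51.7% and 48.0%. For comparison, windows centred on other distal peaks had a median ratio of 0.21, and those on promoter peaks 0.65. A CpG island overlapped 203 of 1170 marked enhancers (17.4%, 95% CI 15.3 to 19.6) and 44 of 30486 peakless ones (0.144%, 95% CI 0.108 to 0.194). Overlap was taken over the whole region, so a wide enhancer touches an island more easily. Islands were not confined to peaks on enhancers. They overlapped 16.9% of enhancer peaks and 8.11% of other distal peaks.

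The reverse view starts from the enhancers over 3 kb from a TSS that were either marked or peakless. Of these 27144, 1161 were marked, a background of 4.28%. Among the 226 that overlapped a CpG island, 201 were marked (88.9%, 95% CI 84.2 to 92.4), against 960 of 26918 without an island (3.57%, 95% CI 3.35 to 3.80). When RefSeq TSSs were also kept 3 kb away, the share with an island was 152 of 173 (87.9%), and without one 814 of 25458 (3.20%). The other 960 marked enhancers had no island.

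CpG content and width went with H3K4me3 separately. Below a CpG ratio of 0.2, 170 of 14726 enhancers were marked (1.15%, 95% CI 0.994 to 1.34). From 0.2 to 0.4 the share was 4.16%, from 0.4 to 0.6 it was 15.6%, and at 0.6 and over 247 of 451 were marked (54.8%, 95% CI 50.2 to 59.3). By width, the share went from 1.04% under 300 bases to 12.2% at 900 bases and over. Within each class of width it was higher in each higher class of CpG ratio. Narrow enhancers under 300 bases with a ratio under 0.2 were marked in 9 of 5400 cases (0.167%), and enhancers of at least 900 bases with a ratio of at least 0.6 in 77 of 101 (76.2%, 95% CI 67.1 to 83.5). Within the lowest class of CpG ratio, width still separated 0.167% from 4.55%.

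**Figure D2:**
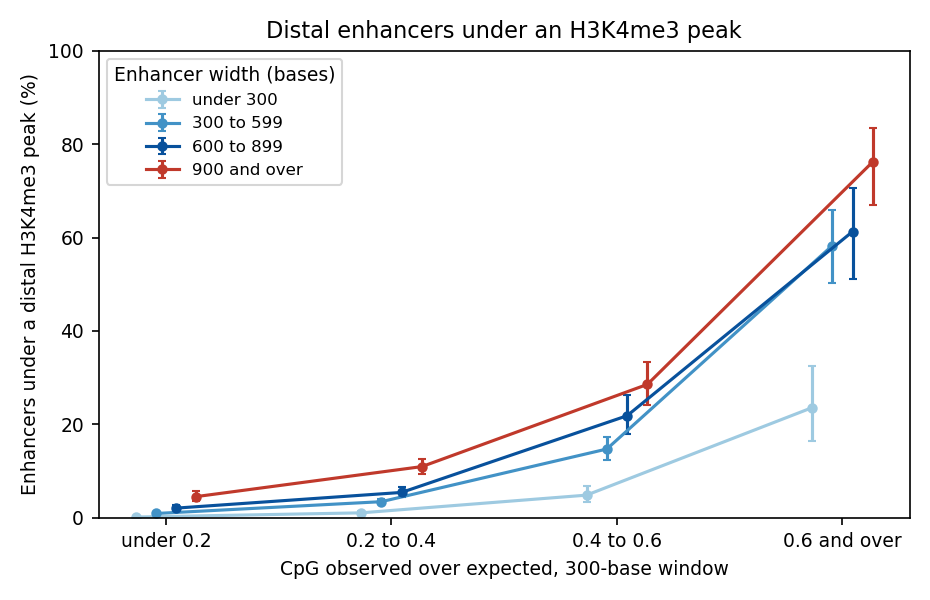
Share of enhancers over 3 kb from a TSS that lay under an enhancer peak (percent, vertical axis) by the ratio of observed to expected CpGs (horizontal axis) in 4 classes of enhancer width. Points are shares and bars are Wilson 95% intervals. The share is higher in each higher class of CpG ratio for every class of width, from 0.167% to 76.2%.

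Motifs with CpGs were more frequent in marked than in peakless enhancers, and AP-1 and RUNX motifs were rarer. Each motif was searched on both strands of the 300-base windows and counted once per window. A window covers a smaller part of a marked enhancer (median 696 bases) than of a peakless one (389). It runs past the ends of enhancers under 300 bases. The shares below thus describe enhancer centres. The SP/KLF motif GGGCGG, the GC box of many promoters, was found in 23.3% of marked and 5.26% of peakless enhancers, against 35.6% of 32817 RefSeq promoter sequences of the same length. The EGR motif GCGTGGG, bound by the immediate-early factor EGR1, was in 7.01% and 1.60%, with 5.04% of promoters. The ETS motif CCGGAAG was in 4.19% and 1.53%, with 8.86% of promoters. The CRE motif TGACGTCA, bound by CREB and ATF proteins, was in 0.940% and 0.341%, with 1.79% of promoters. All of these motifs hold a CpG. In windows centred on other distal peaks their shares, in the same order, were 11.2%, 2.68%, 2.54% and 0.303%. The CTCF core AGGGGGC, which holds none, was in 7.18% (95% CI 5.84 to 8.80) and 3.75% (95% CI 3.54 to 3.97), with 10.6% of promoters. It was in 5.76% of the windows on other distal peaks.

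The AP-1 motif TGANTCA was found in 165 of 1170 marked enhancers (14.1%, 95% CI 12.2 to 16.2) and in 6935 of 30486 peakless ones (22.7%, 95% CI 22.3 to 23.2). It was in 7.81% of promoters. Base content affects such counts, and the same letters in reverse, TCANTGA, were therefore counted as a control. The control was in 5.81% and 9.99% of the windows, so it too was rarer in marked enhancers, at 0.582 times the peakless share, and AP-1 stood at 0.620 times. Windows centred on other distal peaks held AP-1 in 8.52% and the control in 8.69% of cases, so AP-1 was more frequent in marked enhancers than there. The share with an AP-1 match was lower in marked enhancers in each class of GC content, with overlapping intervals under 45%. With a GC content of 50 to 55% they were in 17.3% (95% CI 13.8 to 21.4) of marked and 24.6% (95% CI 23.5 to 25.6) of peakless enhancers over 3 kb from a TSS, and at 55% and over in 9.61% (95% CI 7.05 to 12.97) and 23.9% (95% CI 22.0 to 26.0). The control was lower in the same classes, at 5.59% (95% CI 3.68 to 8.39) against 9.46% (95% CI 8.77 to 10.2) for 50 to 55%, and 3.38% (95% CI 1.98 to 5.69) against 7.54% (95% CI 6.39 to 8.86) for 55% and over. Under 45%, with 69 marked enhancers, AP-1 was in 10.1% of marked and 18.45% of these peakless enhancers, and the control in 10.1% and 10.7%. At 45 to 50% the shares were 16.5% and 23.6% for AP-1, and 7.94% and 10.5% for the control. The intervals of the control overlapped in both of these lower classes. Whether AP-1 was lower beyond its reversed letters was not tested.

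Further motifs of fibroblast enhancers split the same way or not at all. The RUNX motif TGTGGT was in 18.6% (95% CI 16.5 to 20.96) of marked and 25.6% (95% CI 25.1 to 26.1) of peakless enhancers, with 16.8% of promoters. On other distal peaks it was in 20.9% of windows, and no reversed control was counted for it. The TEAD motif GGAATG, the site of the factors that YAP works through, was in 20.3% (95% CI 18.1 to 22.7) and 22.8% (95% CI 22.4 to 23.3), and the bounds overlap. It was in 14.7% of promoters. The CArG box of serum response factor was found in 0.855% and 1.99%, with 1.63% of promoters. The shares for the CEBP motif TTGCNNAA were 12.6% and 12.0% with overlapping intervals, and 10.8% in promoters. The E-box CAGCTG was in 22.2% and 20.5%, and 16.3% of promoters, and the E-box CAGGTG in 13.9% and 16.6%, and 20.2% of promoters. The NRF1 motif CGCATGCG was in 3 marked (0.256%) and 30 peakless enhancers (0.0984%) with overlapping intervals, and in 1.86% of promoters. The NFI pattern, TTGGC and GCCAA separated by any 5 bases, was in 0 marked and 11 peakless enhancers (0.0361%), and in 12 promoters (0.0366%). A match is a string of letters and not a measured binding site.

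**Figure D3:**
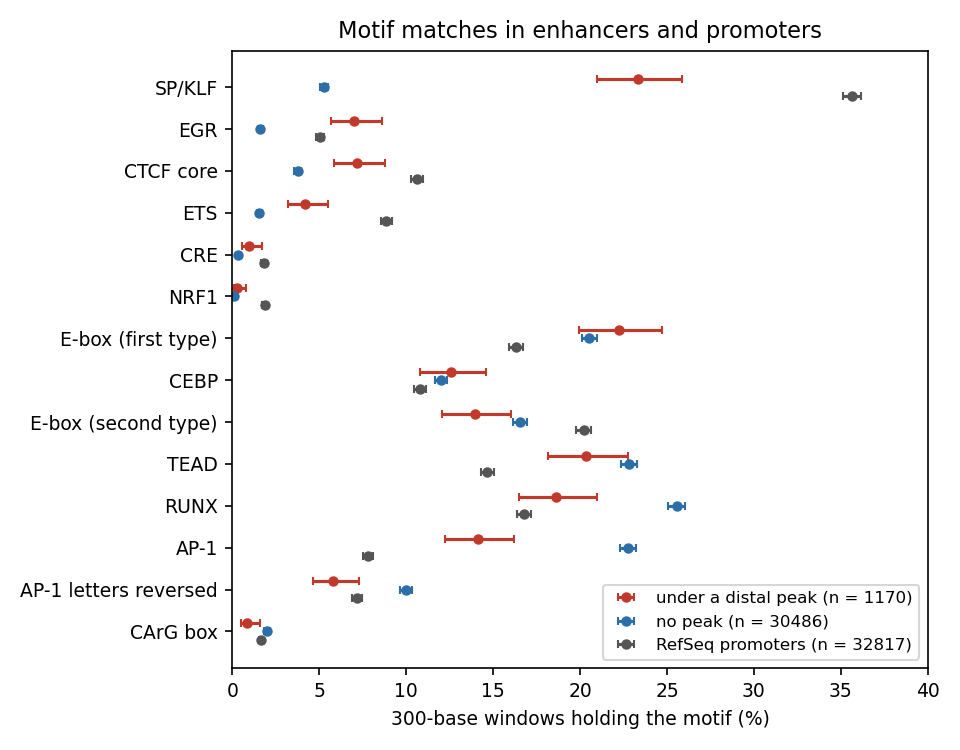
Share of 300-base windows that hold each motif (percent), in marked enhancers, peakless enhancers and RefSeq promoters. Points are shares and bars are Wilson 95% intervals. The first type of E-box is CAGCTG and the second CAGGTG. SP/KLF stands at 23.3% in marked against 5.26% in peakless enhancers, and AP-1 at 14.1% against 22.7%.

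Marked enhancers lay nearer to promoters and more often between genes. Their centres were a median of 11.4 kb (95% CI 10.4 to 12.2) from the nearest TSS, and those of peakless enhancers over 3 kb from a TSS 17.3 kb (95% CI 17.01 to 17.6). The median distance to the nearest promoter peak was 35.1 kb (95% CI 30.5 to 38.6) against 64.6 kb (95% CI 63.3 to 65.8). Introns held the centre of 41.5% (95% CI 38.7 to 44.3) of marked and 53.0% (95% CI 52.4 to 53.6) of these peakless enhancers, and intergenic sequence that of 53.8% and 43.9%. Another enhancer was within 12.5 kb of 58.1% (95% CI 55.3 to 60.9) of marked and 65.4% (95% CI 64.9 to 66.0) of these peakless enhancers. In contrast, the nearest coding gene had an H3K4me3 peak at its own promoter about as often, for 83.3% of marked (95% CI 81.1 to 85.4) and 82.7% (95% CI 82.3 to 83.2) of these peakless enhancers.

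Enhancer peaks differed by place. The 523 in introns had a median width of 322 bases and a CpG island in 8.80%. The 656 between genes had a median of 430.5 bases and an island in 20.7%, and the 64 in exons a median of 512 bases and an island in 43.8%. With distance from the TSS both width and CpG content were lower. At 3 to 10 kb, 563 enhancer peaks had a median width of 432 bases and an island in 23.4%. At over 50 kb, 97 had a median of 297 bases and an island in 7.22%. Across chromosomes with at least 1 enhancer peak, the share of enhancers over 3 kb from a TSS that were marked ranged from 2.69% on chromosome 19 (95% CI 1.75 to 4.12) to 6.08% on chromosome 11 (95% CI 4.95 to 7.45).

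A number of enhancer peaks lay at transcripts that RefSeq annotates and GENCODE lacks as a TSS nearby. A RefSeq TSS was within 1 kb of the centre of 137 of 1243 enhancer peaks (11.02%), and of 131 marked enhancers (11.2%, 95% CI 9.51 to 13.1), against 2.17% of peakless enhancers over 3 kb from a GENCODE TSS. The transcripts were long non-coding RNAs at 71 peaks, mRNAs at 41 and tRNAs at 34, and a peak can count under several kinds. tRNA genes are short genes of RNA polymerase III, and they were looked at after these counts were seen. Of 38 enhancers over 3 kb from a GENCODE TSS with a RefSeq tRNA start within 1 kb of the centre, 34 were marked (89.5%, 95% CI 75.9 to 95.8), against 1127 of 27106 without one (4.16%, 95% CI 3.93 to 4.40). The 34 enhancer peaks near a tRNA start had a median width of 855 bases, and 7 of them held a CpG island. They lay on 14 chromosomes, with 11 on chromosome 13. Other distal peaks had a tRNA start nearby in 122 of 3626 cases (3.36%, 95% CI 2.83 to 4.00), a share whose interval overlaps that of enhancer peaks (2.74%, 95% CI 1.96 to 3.80).

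The 5 enhancer peaks just beyond it lay 3003 to 3029 bases from a TSS, and their nearest coding genes were Otol1, Tgoln1, Nfatc2, Ezr and Anxa1. The 5 peaks on enhancers just short of it lay at 2980 to 2999 bases, nearest to Szrd1, Igf2bp3, Ankrd35, Rock2 and Zcchc2. Peaks at 1 to 3 kb from a TSS were on an enhancer in 498 of 2901 cases (17.2%), and peaks within 1 kb in 883 of 17587 (5.02%).

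All 10 of the widest enhancer peaks overlapped a CpG island. The widest spanned chr3:93443413-93448076, 4664 bases with 2 enhancers below it, in an exon of Tchh, which encodes the hair follicle protein trichohyalin. The centre was 3.41 kb from the Tchh TSS. The nearer edge of this wide peak came closer, though no peak lay within 1 kb of that TSS. Next came 4130 bases in an intron of Kdm6b, an H3K27 demethylase, with the centre 3.46 kb from a GENCODE and 586 bases from a RefSeq TSS. A peak of 2922 bases lay 64.2 kb upstream of Ppara, a fatty acid-sensing nuclear receptor, within the non-coding gene Lncppara. One of 2921 bases lay 7.28 kb upstream of Hoxa11, a homeobox gene of limb and kidney. The others of the 10 widest were at Akna (2504 bases), Rbx1 (2451), Pura (2332), Mecom (2211), Bcor (2116) and Dct (2076). Mecom encodes a zinc finger factor and Bcor a Polycomb-associated corepressor. A RefSeq TSS lay within 1 kb of the centre at Kdm6b, Akna, Pura and Dct. The nearest coding gene had no promoter peak at Tchh, Akna and Dct.

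Of the 14 enhancer peaks on 2 enhancers, the 5 widest were those at Tchh and Dct and peaks of 1903 bases in an exon of Foxc1, 1374 bases near Bmi1 and 1239 bases near En1. Foxc1 is a forkhead factor, Bmi1 a Polycomb subunit and En1 a homeobox factor. The En1 peak was the only one of these 5 without a CpG island.

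Enhancer peaks were spread thinly over genes. Each was assigned to the coding gene with the nearest TSS, which gave 976 of 21853 coding genes, a background of 4.47%. Of these, 776 genes had 1 enhancer peak, 146 had 2, 42 had 3, 11 had 4 and 1 had 5. The gene with 5 was Klrb1c, a receptor of natural killer cells, whose promoter carried no peak. Its 5 peaks measured 1195, 776, 652, 1167 and 548 bases, lay 9.09 to 27.7 kb from its TSS, and all 5 enhancers assigned to it were marked. The centres of the peaks of 652 and 1167 bases lay 404 and 635 bases from a RefSeq TSS. Of the 11 genes with 4, the 9 with the most peak bases were 2410131K14Rik, Syne1, Zfp184, Med13l, Gse1, Chd2, Rere, Ddx3x and Msrb3, and all 9 had a peak at their promoter. Syne1 encodes a nuclear envelope protein that links to actin, and its 4 peaks of 616 to 717 bases lay inside the gene, 94.8 to 115.8 kb from its nearest coding TSS. Med13l encodes a subunit of the Mediator kinase module, and 3 of its 17 enhancers were marked. Chd2 is a chromatin remodeller with 4 of 8 enhancers marked. All 4 peaks near the zinc finger gene Zfp184 had a RefSeq tRNA start within 1 kb. A RefSeq TSS also lay within 1 kb of a peak's centre at 2410131K14Rik (163 bases), Rere (464), Msrb3 (253) and Ddx3x (76 and 377). None of the peaks at Syne1, Med13l, Gse1 and Chd2 had one that near.

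Lists of genes tied to fibroblasts were then examined. Among the AP-1 factors themselves, 3 of 10 genes had enhancer peaks (30.0%, background 4.47%), with 4 at Jun, 3 at Fos and 3 at Fosb, and 8 of the 41 enhancers of the list were marked (19.5%, 95% CI 10.2 to 34.0, background 4.28%). The enhancers of a gene share a locus and are not independent. The Jun peaks were 53.7, 54.1, 109.0 and 109.4 kb upstream of Jun, in the non-coding gene Junos, and measured 204, 390, 278 and 313 bases. The Fos peaks lay 18.8 and 18.1 kb upstream and 12.5 kb downstream of the Fos TSS, and the downstream one, of 1618 bases, held a CpG island. The Fosb peaks lay 9.87, 10.4 and 17.2 kb upstream. All 3 genes had a promoter peak.

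Mesenchymal transcription factors had enhancer peaks at 11 of 25 genes (44.0%, background 4.47%). By enhancer, 17 of their 277 were marked (6.14%, 95% CI 3.87 to 9.61), an interval that includes the background of 4.28%. Twist1, a driver of mesenchymal fate, had 4, of which 3 lay 4.39 to 8.97 kb from its TSS and 1 at 118.4 kb in an intron of Hdac9. Klf4 and Nfia had 3 each and Nfib 2. One of the Nfia peaks, of 491 bases, was 130 bases from a RefSeq TSS. In the YAP and TEAD pathway 3 of the 15 genes found had enhancer peaks (background 4.47%), namely Tead1 with 3 and the target gene Ankrd1 and Tead4 with 1 each, and 4 of 78 enhancers were marked (5.13%, 95% CI 2.01 to 12.5), an interval that again includes the background.

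For the extracellular matrix, 6 of 31 genes had enhancer peaks (19.4%, background 4.47%), and 9 of 312 enhancers were marked (2.88%, 95% CI 1.53 to 5.39, background 4.28%). Thbs1, which encodes thrombospondin, had 46 enhancers and 3 of them were marked, under peaks of 1695, 486 and 264 bases. The collagen-crosslinking enzyme Lox had 2 of 11 marked, the protease gene Adamts5 1 of 27, and the collagen gene Col1a1 its only 1. For the contractile cytoskeleton 3 of 26 genes had enhancer peaks (11.5%) and 4 of 169 enhancers were marked (2.37%, 95% CI 0.924 to 5.93), at Cald1 (1 of 16), Actg1 (2 of 3) and Actb (1 of 3). For adhesion and integrins 2 of 15 genes had enhancer peaks (13.3%) and 2 of 107 enhancers were marked (1.87%, 95% CI 0.514 to 6.56), at Ncam1 and Parva. For the TGF-beta pathway 4 of 17 genes had enhancer peaks (23.5%) and 5 of 133 enhancers were marked (3.76%, 95% CI 1.62 to 8.50), with 2 at the ligand gene Tgfb2 and 1 each at Ltbp1, Tgfbr2 and Tgfbr3. The intervals of all 4 lists include the background of 4.28%, and by enhancer none is told apart from it. A gene with more enhancers has more chances of a peak, so the shares by gene and by enhancer are not on the same footing.

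**Figure D4:**
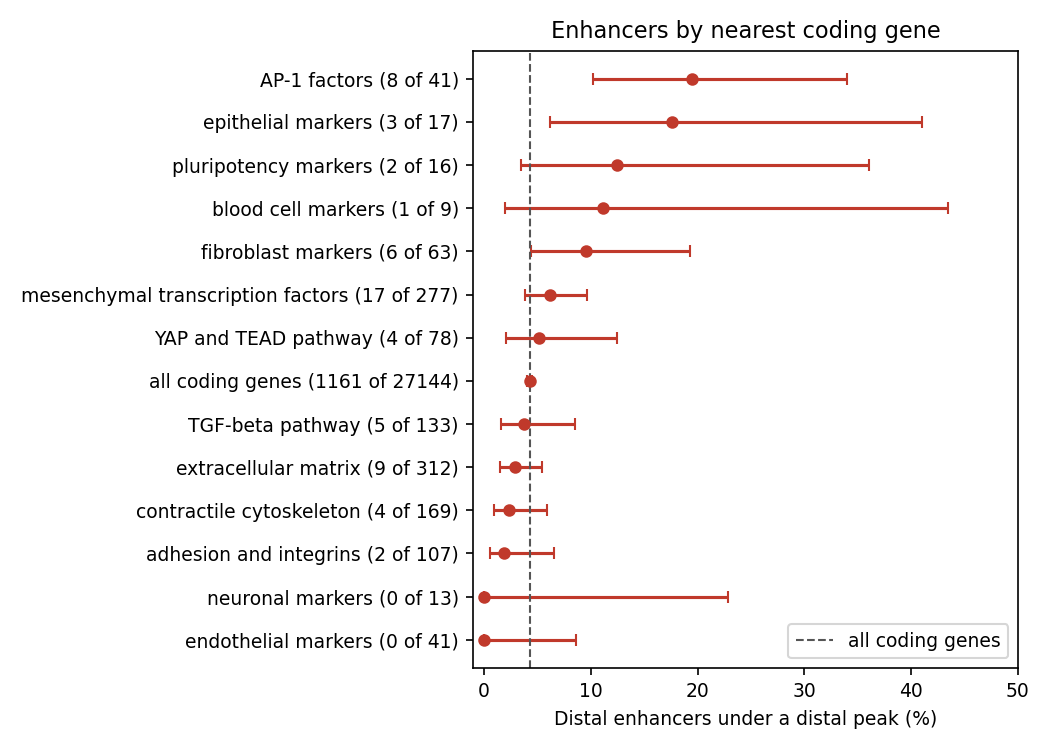
Share of enhancers over 3 kb from a TSS that were marked (percent) for each gene list, by the nearest coding gene, with the number of marked and of all enhancers in brackets. Points are shares and bars are Wilson 95% intervals. The dashed line is the share over all coding genes, 4.28%. AP-1 factors stand highest, at 8 of 41. The intervals of AP-1 factors, epithelial markers and fibroblast markers lie above the line, with a lower bound of 4.44% for fibroblast markers. The intervals treat enhancers of the same locus as independent, which they are not.

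Marker genes of cell types were used to check the label of the cells. A peak lay within 1 kb of a TSS for 11 of 13 fibroblast markers, with Dcn and Lum as the exceptions. The same was true for 2 of 9 epithelial, 0 of 8 blood cell, 3 of 6 endothelial, 4 of 8 neuronal and 0 of 8 pluripotency markers. The share over all coding genes was not computed, so these promoter counts have no background. At enhancers the background was 4.28%. Near fibroblast markers 6 of 63 were marked (9.52%, 95% CI 4.44 to 19.3). Of these, 3 were at Twist1 and the others at the collagen genes Col1a1, Col1a2 and Col3a1. Of the enhancers near epithelial markers, 3 of 17 were marked (17.65%, 95% CI 6.19 to 41.0), at Epcam, Grhl2 and Krt8. Near blood cell markers 1 of 9 was marked (11.1%, 95% CI 1.99 to 43.5), at Ptprc. For pluripotency markers 2 of 16 were marked (12.5%, 95% CI 3.50 to 36.0), both at Nanog, which had no promoter peak. For endothelial and neuronal markers 0 of 41 and 0 of 13 were marked. The share for fibroblast markers was thus below those for epithelial, blood cell and pluripotency markers, with overlapping intervals. The peaks near Epcam and Grhl2 lay 94 and 88 bases from a RefSeq TSS.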

How the data were processed

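ChIP-seq libraries of H3K4me3 and inputs from FKBP-ASH2L iMEF cells underlie the data. The authors trimmed reads (Trim Galore) and aligned them to mm10 (GRCm38.p6) with BWA. Replicates were merged with Picard, and narrow peaks were called with MACS. The submitters' processing notes also name SAMtools, deepTools and DESeq2. The deposited peak list unites all samples. The authors defined enhancers by accessible chromatin with H3K4me1 and H3K27ac in control cells and excluded 1 kb on either side of known TSSs. The deposited enhancer list holds 32965 regions, slightly more than the authors report. Both deposited files hold chromosome, start and end, with 0 columns of values per sample, so that no depth, count or test over samples was available.

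The peaks, gene lists and motifs described were chosen with earlier results of these data known. Peak starts were taken to count from 0 and enhancer starts from 1, as their shortest and most frequent widths show, and 74 peaks outside the 21 chromosomes were left out. TSSs were the 5' ends of all GENCODE M21 transcripts. The authors used Homer for TSS distances and a later release, so their TSS set can differ. CpG islands were segments of the repeat-masked reference, scored 17 per CpG and -1 per other base, over 200 bases with a GC content over 50% and a CpG ratio over 0.6, which gave 16095. Introns, exons and the nearest coding gene were assigned by the centre. Named genes were the 10 genes with most enhancer peaks, the 10 widest peaks, the 5 on most enhancers, up to 4 per gene list, the 5 on either side of the 3 kb limit and the printed windows. Genes in the tRNA comparison and on 3-peak enhancers were named after their values were seen. Promoter sequences were from RefSeq (GRCm38.p6). Interval, island and motif functions were tested on simulated data. Alternatives covered TSS sets, distances, overlap rules, widths, chromosomes, windows and islands. Computations ran in Python 3.11.15 with pandas 2.3.3, NumPy 2.4.6 and SciPy 1.17.1. Numba 0.67.0 sped up the island scan, and plots were drawn in Matplotlib 3.10.9.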

Additional observations from a re-analysis of the deposited data

How the results depend on the processing

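No paired analysis was possible because neither list holds a value per replicate. Differences below are marked minus peakless enhancers, or enhancer peaks minus other distal peaks for peak width. All 83 alternative values of the 8 comparisons kept their sign, and over all results 81 of 119 alternative values stayed close to the reported value. For the share of distal peaks, close meant within its interval, and for counts within 1.5 times. For a difference it meant a shift of at most 50% of the width of the interval of the first group, as no interval of a difference was computed. Requiring the peak to cover at least 50% of the enhancer left 691 enhancer peaks, 14.2% of distal peaks. The differences were then 319 bases in peak width, 128 bases in enhancer width, 0.28 in CpG ratio and 24.8 percentage points in CpG islands, with -12.1 in AP-1, -18.8 in introns and -11.8 in neighbouring enhancers, and -30.4 kb in distance to a promoter peak. Peaks of at least 500 bases left 438, or 51.4% of distal peaks of that size. The same differences were 31.5 bases, 375 bases, 0.33 and 34.9 percentage points, with -12.9, -20.7 and -14.9 percentage points and -31.0 kb. This setting removed peaks under 500 bases from both groups, whose median widths were then 728.5 and 697 bases. The smaller difference in peak width, 31.5 against 150 bases, is therefore in part tied to the setting itself.

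The setting that kept peaks and peakless enhancers over 3 kb from both GENCODE and RefSeq TSSs was chosen after seeing the data. It left 1040 enhancer peaks, and gave 126.5 bases in peak width, -8.94 percentage points in introns and -30.2 kb in distance to a promoter peak. That distance was -29.0 kb with a limit of 2 kb, -19.0 kb with 5 kb and -29.5 kb against peakless enhancers over 3 kb from a TSS. With protein-coding TSSs alone 26.8% of distal peaks lay on an enhancer. Stricter islands gave 7.04 percentage points, and AP-1 windows of 200 and 500 bases -5.89 and -14.6. Counting every coding TSS within 100 kb in place of the nearest gene gave 2569 genes with an enhancer peak. The background under this rule was 11.8% of coding genes, against 4.47% by the nearest gene. It gave 5 of 9 epithelial, 2 of 8 blood cell, 1 of 6 endothelial and 2 of 8 pluripotency markers. It also gave 5 of 10 AP-1 factors, 8 of 17 genes of the TGF-beta pathway and 7 of 26 of the contractile cytoskeleton. This alternative assigns a peak to several genes by construction. Other causes of these shifts were not tested. Depth limits the lists in a way that could not be measured here.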
